A study of Rattus norvegicus with 20 samples.

Results

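Complement components and regulators were followed in RNA from blood, extracted after lysis of red cells without sorting. It came from male Wistar rats, an outbred strain, that were susceptible or resistant to liver injury by acetaminophen (APAP). The members were 10 listed genes (C1qa, C1qb, C1qc, C2, C3, Cfb, Cfp, C3ar1, Serping1 and Cd55), and every probe set annotated to exactly 1 of these symbols was taken. A probe set is the group of oligonucleotides whose hybridization gives 1 signal on the array. This rule found 8 members with 10 probe sets, of 14217 genes with a single-symbol probe set and of 31042 probe sets in all. C2 and Cfb were dropped because their 4 probe sets carry both symbols, so that signal of one gene cannot be told from signal of the other. The 4 groups held 5 arrays each, 1 array per blood sample: susceptible rats 24 h after 1 oral dose of 1200 mg/kg APAP (SA), susceptible rats before the dose (S), resistant rats 24 h after the same dose (RA) and resistant rats before it (R). The susceptible rats were the 5 dosed animals with the highest serum alanine transaminase and the resistant rats the 5 with the lowest, both ranked after dosing, so that the sub-groups were defined by an outcome and not by a strain. Predose blood came from the retro-orbital plexus 1 week before the dose. Food was withheld for 12 h ahead of dosing and for a shorter time after it. Postdose blood was drawn later, 24 h after the dose. For postdose blood the methods name the inferior vena cava, while the sample labels name the retro-orbital plexus for both draws. The arrays include no rat given vehicle, so APAP, fasting, the interval and any change in bleeding site cannot be told apart in the changes after dosing. The same 10 rats gave predose and postdose blood, but the labels do not say which arrays share a rat.

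Complement is a cascade of plasma proteins that marks microbes and cell debris for removal. C1q, built from the products of C1qa, C1qb and C1qc, starts the classical route, C3 is the protein on which all routes converge, and properdin, the product of Cfp, stabilizes the enzyme of the alternative route. C3ar1 is the receptor for the fragment C3a, and the C1 inhibitor (Serping1) and decay-accelerating factor (Cd55) restrain the cascade. The liver makes most circulating C3 and C1 inhibitor, while myeloid cells store properdin, carry C3ar1 and can transcribe C3, and macrophages are a main source of C1q.

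Signals are linear intensities scaled so that the median of each array is 1000, and differences are given on the log2 scale, where 1 is a doubling. The text names an array by its group and replicate number, and signals stand in the order of replicates 1 to 5. Each array correlated with the others of its group at a median r between 0.928 and 0.937, and the 3' to 5' ratio of the actin controls, a sign of RNA integrity, averaged 0.79 ± 0.10 in SA, 0.87 ± 0.05 in S, 0.76 ± 0.10 in RA and 0.80 ± 0.03 in R (log2, SD, n = 5). The 3 probe sets for bacterial trp transcripts, which have no target in rat RNA, marked the background, and the brightest of them lay between 34.9 and 278.7 over the 20 arrays. C3, Cfp, C3ar1 and Cd55 exceeded this control on 20 of 20 arrays. Serping1 exceeded it on 7 arrays, C1qa on 11, C1qb on 5 and C1qc on 4, so that most signals of Serping1, C1qb and C1qc and many of C1qa are no measured level. In bulk blood, fewer cells of a type and less RNA per cell cannot be told apart. The neutrophil markers summed to 844786 to 1223825 in SA, 498124 to 667588 in S, 823091 to 1022785 in RA and 505702 to 712997 in R, and the monocyte markers to 102762 to 191326 in SA, 135309 to 239713 in S, 86633 to 157449 in RA and 127645 to 240564 in R. Of 9 natural killer cell markers 9 rose in resistant rats (median 1.14) and 8 in susceptible rats (median 1.12), and none fell (adjusted p under 0.05 by limma). Of 5 B cell markers 3 fell in susceptible rats and none in resistant rats. Of 9 T cell markers 1 fell in resistant rats and none in susceptible rats. Over all probe sets 5.11% changed in resistant and 6.66% in susceptible rats. None of 6 platelet and none of 6 erythroid markers passed the test in any comparison.

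After APAP, C3 and Serping1 rose in the susceptible rats, where C3ar1 and 1 probe set of Cd55 fell. These calls were not equally stable. Over 20 fits that each left out 1 array, the Serping1 call was lost in 16, the C3 call in 7, the C3ar1 call in 3 and the Cd55 call in 0. In the resistant rats both Cd55 probe sets fell and no other member passed the test. Over the same 20 fits the call of 1370406_a_at was lost in 17 and that of 1387951_at in 0. After dosing, C3 alone among the members differed between the sub-groups and was 2.72-fold higher in SA than in RA, a call lost in 5 of the 20 fits. Of the 10 member probe sets, 4 changed in the susceptible rats (adjusted p under 0.05 by limma), where 6.66% of all probe sets tested did. In the resistant rats 2 of 10 changed, both downward, against 5.11% of all in either direction and 2.60% downward. Between SA and RA 1 of 10 differed, against 0.143% of all in either direction and 0.124% upward, and 3 of 10 had an unadjusted p under 0.05, against 9.18% of all. By direction, the shares of all probe sets that rose and fell in the susceptible rats were 3.86% and 2.80%, and 2 member probe sets moved each way.

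**Figure D1:**
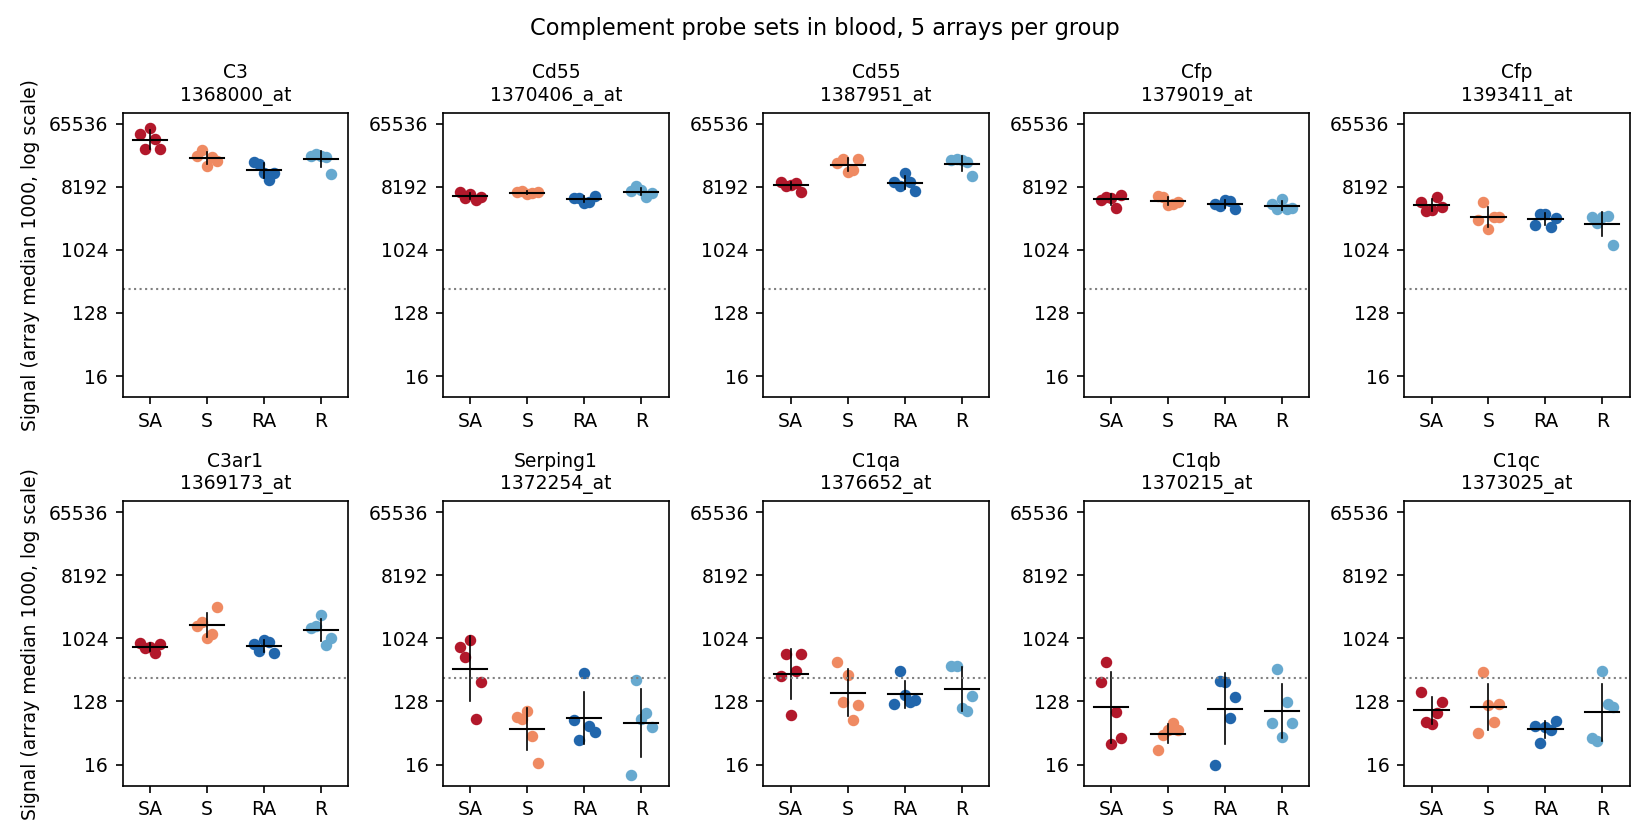
Signal of each member probe set on every array (log2 axis, array median 1000), by group, with points for single arrays, the horizontal bar at the geometric mean and the vertical bar at 1 SD of the log2 values. The dotted line is the brightest bacterial control on any array (278.7). All 5 SA arrays lie above all 5 RA arrays for C3, and Serping1 and the C1q chains lie mostly under the line.

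**Figure D2:**
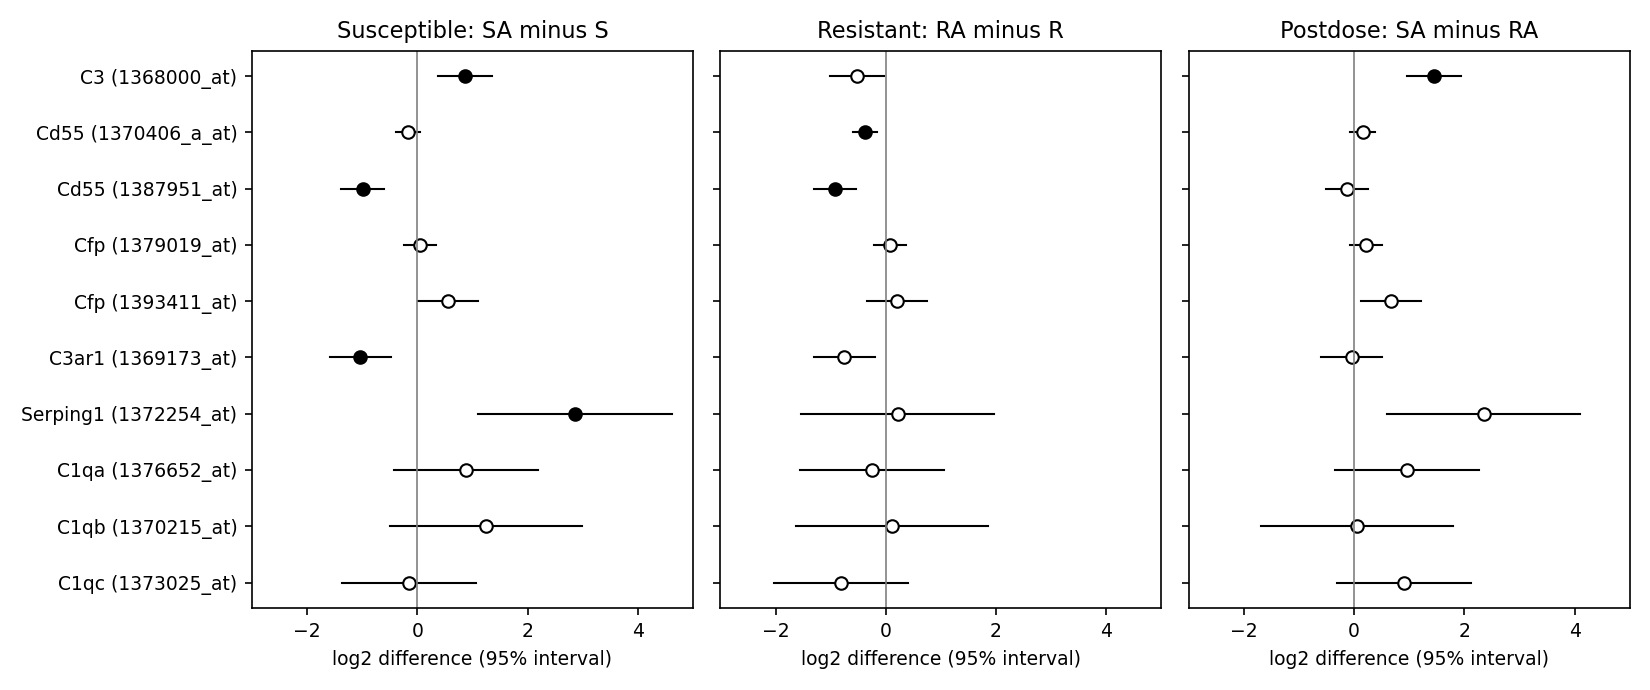
Log2 difference of each member probe set with its unadjusted 95% interval from limma, for SA minus S, RA minus R and SA minus RA. Filled points passed an adjusted p of 0.05. C3 is filled in the first and the third panel and Cd55 1387951_at in the first and the second.

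C3, the central component, had signals of 46419, 27867, 57457, 39535 and 28023 on the SA arrays and of 18559, 17364, 13036, 10242 and 12945 on the RA arrays (probe set 1368000_at). The lowest SA array was brighter than the highest RA array, so that the groups did not overlap. The log2 difference was 1.44 ± 0.23 (SE, adjusted p = 0.0196), the 11th smallest p of all 30747 probe sets tested. This call was lost without RA replicate 2, 3 or 4 or SA replicate 1 or 3 (differences of 1.30 to 1.52, adjusted p of 0.0501 to 0.0695) and in a fit of only the arrays compared (adjusted p = 0.0802). Groups did not overlap between SA and RA for 2 of 10 member probe sets (C3 and Cfp 1393411_at), against 2.23% of all.

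Within the susceptible rats, C3 read 22423, 27204, 16355, 21701 and 18939 before the dose, and all 5 SA arrays lay above these values. The gap between the groups was narrow, 27867 at the bottom of SA against 27204 at the top of S. The change was 0.87 ± 0.23 (SE, adjusted p = 0.0320). This call did not hold without S replicate 1, 3, 4 or 5 or without SA replicate 1, 3 or 4, where the difference ranged from 0.72 to 0.89 and the adjusted p from 0.0509 to 0.0946.

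In the resistant rats C3 read 22433, 24207, 22744, 21550 and 12613 before the dose. R replicate 5 lay among the RA arrays, while the other R arrays lay above all of them. The change was -0.52 ± 0.23 (SE, adjusted p = 0.258), and -0.69 (adjusted p = 0.0865) without R replicate 5. The geometric means were ordered SA (38294), S (21017), R (20193) and RA (14099), and the neighbours S and R differed by 0.06 ± 0.21 (SE), within their spread. The interval of the change in resistant rats left out 0 (-1.01 to -0.03, unadjusted p = 0.0394), and the change missed the threshold over all probe sets. The difference between the changes of both sub-groups was 1.38 ± 0.33 (SE, 95% interval 0.69 to 2.08, unadjusted p = 0.000563), which did not pass over all probe sets (adjusted p = 0.320), as no probe set did.

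The 250 bases before the annotated start of C3 and of Cfp (GRCr8, RefSeq) are shown because C3 is the member that differed after dosing and Cfp, a member of the alternative route, made no call. The C3 window is chr9:2201340-2201589 on the minus strand and the Cfp window chrX:3715301-3715550 on the plus strand, both 5′ to 3′. Capitals mark matches to 2 motifs searched on both strands, TTGCNNAA for C/EBP and GGGNNNNNCC for NF-kB.
C3: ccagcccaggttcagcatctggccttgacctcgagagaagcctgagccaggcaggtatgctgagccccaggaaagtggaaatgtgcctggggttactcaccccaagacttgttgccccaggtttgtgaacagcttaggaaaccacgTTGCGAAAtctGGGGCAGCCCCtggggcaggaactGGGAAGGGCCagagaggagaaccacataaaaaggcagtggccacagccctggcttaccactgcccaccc
Cfp: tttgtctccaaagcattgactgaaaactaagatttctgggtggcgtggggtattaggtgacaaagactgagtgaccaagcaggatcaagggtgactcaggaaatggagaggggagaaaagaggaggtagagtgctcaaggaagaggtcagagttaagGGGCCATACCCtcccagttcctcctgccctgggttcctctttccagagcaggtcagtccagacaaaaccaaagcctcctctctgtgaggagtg
The C3 window held 1 C/EBP match, which starts 104 bases before the start site, and 3 NF-kB matches that start 93, 92 and 69 bases before it, of which the first and the second overlap each other. The Cfp window held 2 overlapping NF-kB matches and no C/EBP match. Of all 33469 windows of this length, 9.22% held the C/EBP letters and 42.3% the NF-kB letters. Sequences matched 6 of the 10 members. None of the 6 windows held the interferon motif GAAANNGAAA (3.41% of all windows), and C1qa alone held TTCNNNGAA, the motif bound by STAT factors (7.67% of all). A match is a run of letters and was not tested as a binding site.

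The 2 SA arrays with the most C3 signal, replicates 1 and 3, also had the highest sums of their group for the liver, interferon-response, neutrophil and tissue macrophage lists. The 10 liver markers summed to 17439, 3829, 28540, 3304 and 6926 in SA, against 2266 to 4259 in RA, 1627 to 3400 in S and 2391 to 3710 in R, so that the highest liver sums fell on SA replicates 1 and 3, which also had the highest C3 signals. SA replicate 4, the third by C3, had the lowest liver, interferon (1129889) and neutrophil (844786) sums of its group. Alb (albumin) alone read 9731, 1082, 15297, 619 and 3239 in SA, and so made up most of the liver sums on replicates 1 and 3. Of the 10 liver markers 2 rose in the susceptible rats, Alb (3.17, adjusted p = 0.0161) and Ahsg (fetuin-A, 2.62, adjusted p = 0.0136). Fgb (-0.83), Fga (-0.48) and Apoa1 (-0.19) lay lower in SA than in S without passing. None of the liver markers passed between SA and RA, and Apoa1 stayed under a median of 100 in each group. The 13 interferon-response genes summed to 1129889 to 1945539 in SA, 558603 to 1180326 in S, 565006 to 698914 in RA and 538258 to 1432647 in R, with the 2 highest sums again on SA replicates 1 and 3. Between SA and RA 3 of the 13 were higher and none lower, Gbp2 (a guanylate-binding protein, 1.99, adjusted p = 0.00967), Usp18 (a protease that removes ISG15, 2.61, adjusted p = 0.0266) and Cxcl10 (a chemokine, 3.71, adjusted p = 0.0226). The median difference of the list was 1.27, against -0.0026 over all probe sets. The median change of the list was 1.30 in susceptible rats, with 4 genes higher and none lower. In resistant rats it was -1.05, with 1 gene higher and 2 lower.

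Without SA replicates 1 and 3, the 3 remaining SA arrays (27867 to 39535) still lay above all RA arrays for C3. The difference between SA and RA was then 1.15 (adjusted p = 0.208, with 5 probe sets called in all), and the change in susceptible rats 0.58 (adjusted p = 0.274). The neutrophil sums were 1223825 and 1080734 on SA replicates 1 and 3, against 844786 to 971565 on the other SA arrays, and 0 of the 9 neutrophil markers passed between SA and RA. The part of liver RNA, of interferon-response genes and of neutrophil number in the C3 difference was not tested.

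**Figure D3:**
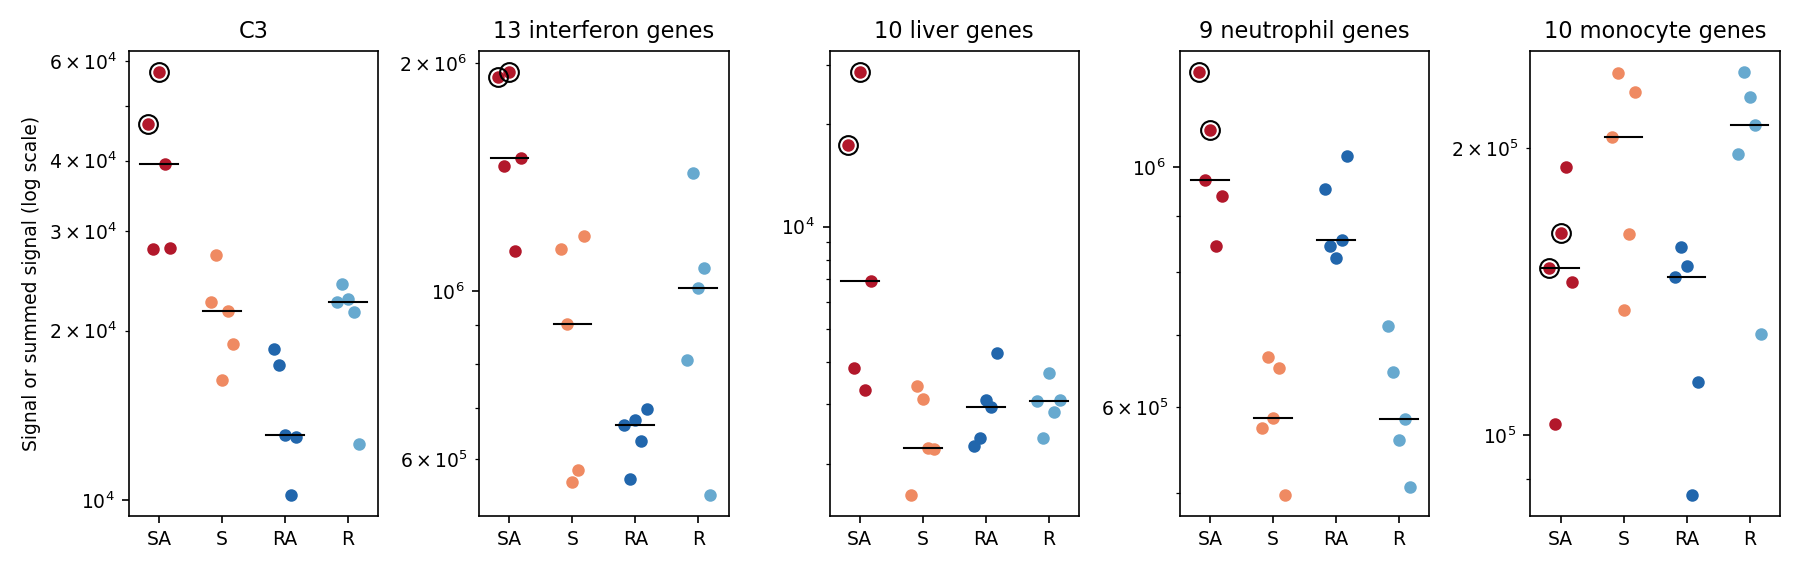
Signal of C3 and summed signals of 4 marker lists on every array (log axes, each with its own range), by group, with a bar at the median. Circles mark SA replicates 1 and 3, which had the 2 highest liver sums (17439 and 28540), the 2 highest interferon sums and the 2 highest C3 signals.

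Cfp encodes properdin, a component kept in neutrophil granules, and its 2 probe sets made no call in any comparison. Probe set 1379019_at read 5267, 5893, 5656, 4021 and 6326 in SA, 6064, 5755, 4530, 4678 and 4984 in S, 4697, 4268, 5302, 5055 and 3937 in RA and 4568, 3961, 5526, 3932 and 4082 in R. These groups overlapped in all comparisons. The change was 0.06 (95% interval -0.24 to 0.35) in susceptible and 0.08 (-0.21 to 0.37) in resistant rats, intervals that leave out a doubling for this probe set.

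Probe set 1393411_at read 4888, 3669, 3826, 5898 and 4209 in SA and 2337, 3336, 3337, 2198 and 2963 in RA, without overlap. In S it read 2707, 4968, 2005, 3061 and 2992 and in R 2984, 2491, 3016, 3089 and 1211. The difference between SA and RA was 0.67 ± 0.26 (SE, unadjusted p = 0.0206, adjusted p = 0.425). The change in susceptible rats was 0.56 (95% interval 0.01 to 1.11, unadjusted p = 0.0477, adjusted p = 0.256), an interval that leaves out 0 and includes a doubling. The log2 ratio of 1393411_at to 1379019_at averaged -0.28 ± 0.52 in SA and -0.73 ± 0.37 in RA (SD, n = 5; exact two-sided permutation p = 0.159, adjusted p = 0.317 over 8 such tests).

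C3ar1, the C3a receptor, read 881, 738, 771, 633 and 837 in SA, against 1529, 1767, 1042, 1177 and 2901 in S (1369173_at). All SA arrays lay below all S arrays, and the SA values were closer together. The gene fell by 1.04 on the log2 scale (SE 0.26, adjusted p = 0.0238), a call lost without S replicate 2 (-0.99, adjusted p = 0.0541), S replicate 5 (-0.81, adjusted p = 0.0567) or SA replicate 3 (-1.04, adjusted p = 0.0521). In RA it read 853, 685, 960, 896 and 624, against 1436, 1551, 2190, 834 and 1052 in R, where R replicate 4 lay among the RA arrays. The change in resistant rats was -0.75 ± 0.26 (SE, adjusted p = 0.122), and the difference between the changes was -0.28 ± 0.37 (SE, 95% interval -1.07 to 0.51, adjusted p = 0.941). After dosing the sub-groups differed by -0.05 (95% interval -0.60 to 0.51).

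Monocyte genes moved beside C3ar1, which monocytes carry. Of 10 monocyte markers 4 fell and 1 rose in susceptible rats, with a median of -0.43, against 0.01 over all probe sets. Those that fell were Adgre1 (a macrophage surface receptor, -1.75, adjusted p = 0.00149), Nr4a1 (a nuclear receptor that patrolling monocytes need in mice, -1.49, adjusted p = 0.00300), Csf1r (the receptor for M-CSF, -0.89, adjusted p = 0.0168) and Cx3cr1 (the fractalkine receptor, -0.78, adjusted p = 0.0347). Fcgr1a, a high-affinity Fc receptor, rose by 0.98 (adjusted p = 0.0360). In resistant rats 1 of the 10 passed, Nr4a1 (-1.86, adjusted p = 0.000629), with a median of -0.32. The part of monocyte number in the C3ar1 change was not tested.

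Cd55 encodes decay-accelerating factor, a membrane protein that dissociates the C3-cleaving enzymes on the cell that carries it. Its probe set 1387951_at read 9637, 8318, 8707, 9255 and 6948 in SA, against 18087, 20553, 13199, 14153 and 20098 in S. It read 9486, 8417, 12740, 9527 and 7204 in RA, against 20019, 20076, 19405, 18438 and 11615 in R. No SA array reached an S array, while RA replicate 3 lay above R replicate 5. The signal fell by 0.99 in susceptible (SE 0.18, adjusted p = 0.00280) and by 0.92 in resistant rats (SE 0.18, adjusted p = 0.00565), 1.99-fold and 1.89-fold lower than before the dose. The difference between these changes was -0.08 (95% interval -0.62 to 0.47), and after dosing the sub-groups differed by -0.13 (95% interval -0.51 to 0.26). Leaving out any 1 of the 20 arrays kept both calls. Over all probe sets 6.83% did not overlap between SA and S, and 6.76% between RA and R, against 3 (C3, C3ar1 and Cd55 1387951_at) and 0 of the 10 member probe sets.

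The other Cd55 probe set, 1370406_a_at, read 6876, 5665, 6446, 5243 and 5926 in SA, against 6813, 7060, 6449, 6603 and 6865 in S. In RA it read 5734, 5700, 4801, 4907 and 5979, against 7017, 8320, 7324, 5907 and 6589 in R. Its groups overlapped in both sub-groups, by 1 array in the resistant rats. The change was -0.37 ± 0.10 in resistant (SE, adjusted p = 0.0485) and -0.17 ± 0.10 in susceptible rats (SE, adjusted p = 0.421), and leaving out any array but R replicate 4, SA replicate 1 or SA replicate 4 lost the resistant call, with differences between -0.43 and -0.31 over all 20. The suffix of this probe set marks one shared by several transcripts of a gene, and the annotation used here does not tell the transcripts apart.

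The probe sets of Cd55 thus moved by unequal amounts. The log2 ratio of 1387951_at to 1370406_a_at was 0.50 ± 0.21 in SA, against 1.33 ± 0.25 in S (SD, n = 5), and 0.78 ± 0.43 in RA, against 1.33 ± 0.32 in R. Ratios did not overlap between SA (0.23 to 0.82) and S (1.03 to 1.55). The exact two-sided permutation test gave p = 0.00794 in susceptible rats, the smallest that 252 arrangements allow, and p = 0.0714 in resistant rats. Adjusted over 8 such tests these were 0.0635 and 0.254, so that neither passed.

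Serping1 encodes the C1 inhibitor, which blocks the proteases C1r and C1s and which interferon is known to induce in human cells. It read 781, 552, 983, 71 and 243 in SA, against 76, 73, 94, 41 and 17 in S (1372254_at). Of these arrays 4 SA and no S array exceeded their own bacterial control, so the S values only bound the level from above. The fitted log2 difference was 2.86 ± 0.83 (SE, adjusted p = 0.0477). With each S array set at the brighter of its signal and its control, the mean SA signal was 2.32-fold higher. This value is no strict lower limit, because SA replicate 4 (71) lay under its own control and entered at its signal. In RA it read 69, 36, 322, 58 and 46 and in R 11, 258, 73, 86 and 56, with 1 RA and 2 R arrays above the control. The difference between SA and RA was 2.35 ± 0.83 (SE, adjusted p = 0.350) and that between the changes 2.64 ± 1.18 (SE, unadjusted p = 0.0381, adjusted p = 0.694). The call in susceptible rats held only when R replicate 1, R replicate 2, RA replicate 3 or SA replicate 4 was left out, with differences of 2.46 to 3.46 over all 20. The highest signals were on SA replicates 3, 1 and 2. SA replicates 1 and 3 had the highest liver and also the highest interferon sums, and without them the difference was 2.04 (adjusted p = 0.329). Serping1 was lowest in SA on replicate 4, which had the lowest liver and interferon sums of its group. The part of liver RNA and of the interferon response in this result was not tested.

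The chains of C1q, whose genes C1qa, C1qc and C1qb neighbour each other in the annotation, lay near the bacterial controls. C1qa (1376652_at) read 300, 602, 81, 348 and 613 in SA, 471, 127, 302, 70 and 113 in S, 117, 350, 160, 124 and 136 in RA and 415, 416, 105, 94 and 153 in R, and exceeded its array's control on 4 SA, 2 S, 2 RA and 3 R arrays. C1qb (1370215_at) ranged from 15.7 to 474.6 and C1qc (1373025_at) from 32.9 to 346.0 over all arrays. None of the chains passed in any comparison, and the widest gap, for C1qb in susceptible rats, was 1.24 with a 95% interval from -0.49 to 2.98. The tissue macrophage markers did not pass either, 0 of 6 in each comparison.

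Before the dose, no member differed between susceptible and resistant rats, against 0.00329% (1 of 30416) of all probe sets. At an unadjusted p under 0.05 there were 0 members, against 3.74% of all. The members with signals above the controls differed by -0.05 (both Cd55 probe sets) to 0.31 (Cfp 1393411_at), and the interval of C3 ran from -0.41 to 0.53. None of the 10 member probe sets passed for the difference between the changes either, nor did any other probe set, and 2 (C3 and Serping1) had an unadjusted p under 0.05, against 6.90% of all.

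Among arrays of the same group, members varied together only in part. Deviations from the group means were compared between the 8 genes over 20 arrays, with 1 probe set per gene and labels permuted within groups. C3ar1 and Cd55 had Pearson's r = 0.600 (permutation p = 0.0178) and Spearman's rho = 0.706 (p = 0.00187), adjusted to 0.249 and 0.0524 over 28 pairs, and r = 0.696 without the 2 arrays farthest from the median. Cfp and C3ar1 had r = 0.578 (permutation p = 0.00824, adjusted p = 0.231) and rho = 0.588. No pair passed after adjustment.

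The genes whose deviations were most like those of C3, of 8821 genes with a mean signal of at least 1000, were Lmnb1 (lamin B1, r = 0.948), Fmnl1 (a formin of leukocytes, r = 0.947) and Sqor (a mitochondrial sulfide oxidase, r = 0.933). For C3ar1 they were Mdfic (0.807), Spats2l (0.803) and Asf1b (a histone chaperone, 0.801), and for Cd55 1387951_at Rnase6 (a ribonuclease of myeloid cells, 0.864), Aup1 (0.857) and Bcat1 (a branched-chain amino acid transaminase, 0.842). These are descriptions over 20 arrays that share scaling and blood draw, chosen as the highest of many.

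Other complement genes were taken from a list of 40, of which 30 were on the array. In susceptible rats 4 rose and none fell, where 3.86% of all probe sets tested rose. The median was 0.11, against 0.01 over all probe sets. In resistant rats 3 rose and none fell, where 5.11% of all changed in either direction. The median was -0.06, against -0.01, and 1 of the 3, C4bpa, lay near the bacterial controls. None differed between SA and RA, before the dose or in the difference between the changes. Cfd, the protease factor D that cleaves factor B, read 20824, 13857, 29947, 19267 and 13031 in SA, against 3444, 6089, 3959, 4241 and 2223 in S. It read 20308, 20360, 15795, 12487 and 17418 in RA, against 5542, 3514, 2942, 3831 and 4765 in R. All postdose arrays lay above all predose arrays, with changes of 2.29 ± 0.27 in susceptible (SE, adjusted p = 7.35e-05) and 2.08 ± 0.27 in resistant rats (SE, adjusted p = 0.000181).

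C5ar1, the receptor for C5a on neutrophils and monocytes, rose by 1.14 in susceptible (adjusted p = 0.000354) and by 0.72 in resistant rats (adjusted p = 0.0133). It read 72560 to 108030 in SA, against 31877 to 57583 in S, and 52049 to 67818 in RA, against 31142 to 46105 in R. Neutrophil markers moved beside both, with 4 of 9 higher in susceptible rats (Csf3r 1.73, Cxcr2 2.21, S100a8 0.78 and S100a9 0.55) and 3 of 9 in resistant rats (Csf3r, Cxcr2 by 1.48 and S100a8 by 0.73), none lower, and the part of neutrophil number in the changes of Cfd and C5ar1 was not tested.

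Itgam, the alpha chain of complement receptor 3, rose by 0.85 (adjusted p = 0.00249) and Cd46, a membrane cofactor for cleavage of C3b, by 0.70 (adjusted p = 0.00742) in susceptible rats. In resistant rats the changes were 0.44 (adjusted p = 0.120) and 0.01 (adjusted p = 0.982), and the differences between the changes were 0.41 (adjusted p = 0.755) and 0.69 (adjusted p = 0.467). C4bpa, the alpha chain of C4b-binding protein, passed in resistant rats (2.10, adjusted p = 0.0391) at median signals of 120.1 in RA and 28.2 in R, within or under the range of the bacterial controls. Cr1l, a rodent regulator of C3 on membranes, stayed between 46955 and 58528 on all 20 arrays, with changes of 0.08 in susceptible and 0.09 in resistant rats.

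**Figure D4:**
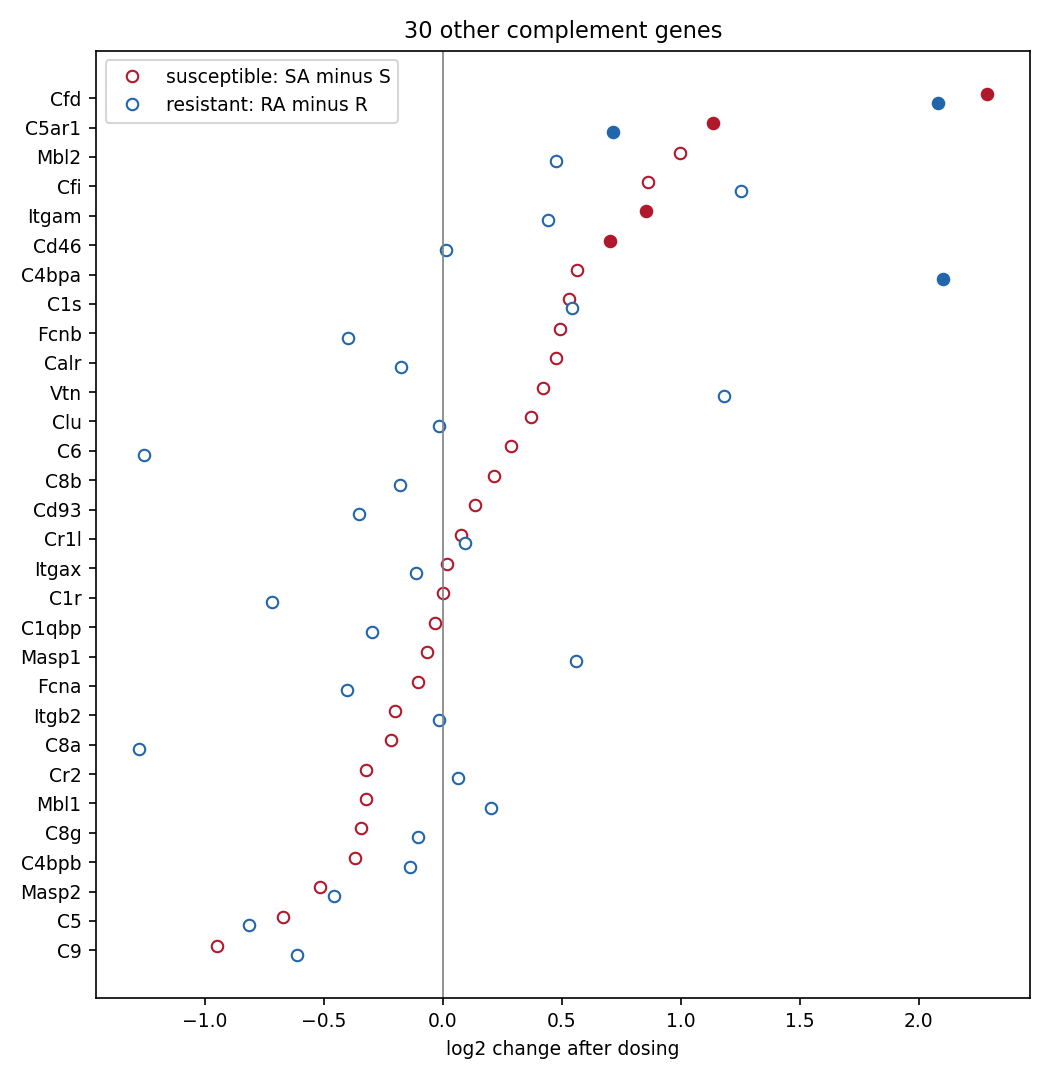
Log2 change after dosing of the 30 other complement genes, SA minus S and RA minus R, with filled points for an adjusted p under 0.05 and genes ordered by their change in susceptible rats. Cfd lies farthest to the right in susceptible rats (2.29), beside 2.08 in resistant rats.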

How the data were processed

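The authors deposited 1 linear intensity per probe set and array (Affymetrix rat genome arrays, 20 in all, array medians of 187.4 to 223.0). The software behind these signals is not given in the sources used here. The methods describe red cell lysis, Trizol extraction and scaling of each chip to a median of 1000 in ArrayTrack. Here the 31042 probe sets that are not controls (57 controls were set aside) were divided by their median on each array, multiplied by 1000 and converted to log2. A fit kept each probe set that reached 100 on at least 1 of its arrays. Of the probe sets, 20826 carry 1 symbol, 436 several and 9780 none.

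Tests used limma 3.58.1 (R 4.3.3), with Benjamini-Hochberg adjustment over all probe sets tested, at 0.05. S and R were fitted on the 10 predose arrays, the other comparisons on all 20 arrays, which share 1 spread. How many arrays there are limits precision. The labels call the samples biological replicates. For the Serping1 comparison with the control, each S array was set at the brighter of its highest trp control and its signal, and SA arrays kept their signals. The members and lists were chosen with earlier results of these data known. All member probe sets are named. Of the lists, up to 6 genes past the threshold are named. Cr1l, Apoa1 and the genes like C3 and Cd55 were chosen after their values were seen. The genes most like C1q, near background, and Cfb, without a probe set of its own, are not given. Upstream sequences are those of RefSeq (GRCr8). The windows of Cd55, C3ar1, C1qa and C1qb were searched and not printed. The fit was tested on simulated data. Alternatives were another normalization, values as deposited, other filters, 1 probe set per gene (highest mean signal), only the arrays compared, a block for the replicate number, the t-test of the methods, each array left out and, chosen after seeing the data, SA replicates 1 and 3 left out together.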

Additional observations from a re-analysis of the deposited data

Results flagged for a closer look

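Of 40 groups of 5 arrays (10 probe sets in 4 groups), 4 had 1 array far from the others, and chance gives about 1 in 20. R replicate 5 was far below the other R arrays for C3 (12613, next 21550), for Cd55 1387951_at (11615, next 18438) and for Cfp 1393411_at (1211, next 2491). On the marker lists this array often lay at an end of its group. It had the lowest sums of the R group for the monocyte (127645), interferon (538258), neutrophil (505702), natural killer cell (197683), T cell (433965), B cell (108427) and tissue macrophage (8575) markers and the other complement genes (455851), and the highest for the erythroid markers (741354). The next sums were close for the natural killer cell (198554) and B cell (111464) markers. The platelet (1160159) and liver (3089) sums of R replicate 5 lay within the range of the other R arrays. RA replicate 2 was far above the other RA arrays for C1qa (350, next 160), a probe set near the controls.

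The 4 probe sets annotated to both C2 and Cfb, neighbouring genes whose products cleave C3 in the classical and alternative routes, belong to no single member and exceeded the brightest bacterial control of their array on 20 of 20 arrays each. Probe set 1389470_at ranged from 2688 to 6501 in SA, from 445 to 1189 in RA, from 910 to 5099 in S and from 577 to 8731 in R. SA and RA did not overlap, and their difference was 2.44 ± 0.63 (SE, unadjusted p = 0.00115, adjusted p = 0.148). Susceptible rats changed by 0.59 (adjusted p = 0.684), resistant rats by -2.16 (adjusted p = 0.0568), and the difference between these changes was 2.75 (unadjusted p = 0.00647, adjusted p = 0.484). The other 3 probe sets were higher in SA than in RA by 1.11, 1.31 and 1.65, with adjusted p of 0.484, 0.441 and 0.355.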

How the results depend on the processing

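None of the called results changed direction, nor did the C3 difference between the changes. Without R replicate 5, some uncalled differences near 0 changed sign, among them those of C3 before the dose (-0.11), Cfp 1393411_at in resistant rats (-0.05) and Cd55 1387951_at in the difference between the changes (0.07). Of the member probe sets, 4 changed in susceptible rats. This count was 1 with only the arrays compared, 2 with the replicate block, 2 by the methods' t-test with its fold change, 1 by that test adjusted, 1 without SA replicates 1 and 3, and 1 to 4 when each array was left out in turn (2 without S replicate 1, 2, 3 or 4 or SA replicate 1, and 1 without S replicate 5 or SA replicate 3). In resistant rats 2 changed. This count was 1 with quantile normalization, 1 probe set per gene, only the arrays compared or the replicate block, 0 by the methods' t-test either way, and 1 to 2 when each array was left out. Between SA and RA 1 differed, C3. This count was 0 with only the arrays compared, 0 by the methods' t-test adjusted, 0 without SA replicates 1 and 3, 2 by the methods' t-test with its fold change (C3 and Serping1), and 0 to 1 when each array was left out. It was 0 without RA replicate 2, 3 or 4 or SA replicate 1 or 3. The counts of 0 before the dose and in the difference between the changes stayed at 0. The cause of these shifts was not tested. Cd55 1387951_at kept its call in susceptible rats in 29 of 30 alternatives and in resistant rats in 28 of 30, the others being the methods' t-test. Over all probe sets the calls between SA and RA, 44, were 8 with the replicate block and 5 to 89 over the other limma settings. Postdose and predose arrays of 1 number did not deviate together (correlations of -0.03 to 0.05, and 4 of 10 predose arrays closest to their own number). These values cannot decide whether the numbers follow the rat, so the block is not known to pair arrays by rat. Signal near the controls limits Serping1 and the C1q chains.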
